A study of Mus musculus with 12 samples.

Results

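The genes of the translation initiation factors (symbols that begin with Eif and a digit) and elongation factors (Eef and a digit) were examined in mouse spinal cord after a partial transection. They were chosen by gene symbol. Such a symbol stood alone on 118 probe sets, which represent 52 of the 12394 genes that have a probe set with a single gene symbol. Each gene was represented by its probe set with the highest mean over the 12 arrays. Of the 52 genes, 51 passed a filter on dim probe sets, as did 10371 genes in all. The filter asked for 3 or more arrays on which the probe set exceeded the array's 25th percentile. On all 12 arrays 49 of the 52 did. The gene that failed was Eif2s3y, the Y-linked copy of an eIF2 subunit gene, which stood between 5.46 and 5.99 on the 12 arrays of these female mice. Those levels lay below the median of the 27 control probe sets for absent organisms (group means 5.70 to 6.08).

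The mice were C57BL/6 females, wild type and 10 weeks old. Injured mice had 80% of the cord cut across with scissors after a laminectomy, so part of the cord was spared. Control mice had the laminectomy alone; they are called sham here, although the sample titles call them naive. A piece of cord 2.5 cm long around the lesion was taken 9 h later and homogenised, and an aliquot of the homogenate gave total RNA. A sucrose gradient of the remainder gave the RNA bound to polysomes. Sham and injured cord were each measured in both RNA fractions, which makes 4 groups, each with 3 arrays that the titles call biological replicates. A fixed mass of RNA was labelled (5 µg for the total fraction and 3 µg for the polysome fraction), so a value gives a share of the RNA in its fraction. The labels do not say how many animals gave each replicate. In such bulk tissue, fewer cells of a type and less RNA per cell cannot be told apart.

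Translation of most mRNAs starts when eIF4E binds the cap and, with the scaffold eIF4G and the helicase eIF4A, recruits a small ribosomal subunit that carries eIF3, eIF1, eIF1A, eIF5 and the initiator tRNA held by eIF2. The exchange factor eIF2B reloads eIF2 with GTP, and stress kinases that phosphorylate eIF2 block that step. eEF1A then brings each aminoacyl-tRNA to the ribosome and eEF2 moves the ribosome along the message, a step that eEF2 kinase slows. mRNAs attached to many ribosomes sediment as polysomes, so a gene's share of polysome-bound RNA reflects both how much of its mRNA is present and how much of that is on ribosomes.

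Many mRNAs of the translation machinery begin with a C and an unbroken run of pyrimidines, the terminal oligopyrimidine (TOP) motif, through which mTOR signalling controls their loading. RefSeq start windows (GRCm38.p6, 15 bases before the annotated start and 15 bases from it) were found for 42 of the 52 genes and searched, on the gene's own strand, for an unbroken stretch of C and T, read from its first C and at least 5 bases long, whose first C lay within 10 bases of the start. The windows of 13 of the 42 genes (31.0%) held such a run, against 32.6% of 27025 genes with a window and 61.3% of 62 cytosolic ribosomal protein genes. A wider rule, added after the data were seen, let any C within 10 bases of the start open the run, also inside a stretch that began farther upstream. It added Eif2b5 and Eif4e, which made 15 of 42 genes (35.7%), against 34.4% of all genes and 62.9% of the ribosomal protein genes. The windows printed here belong to 3 genes that were lower on injured polysomes (Eif3f, Eif3m and Eef1e1), 3 that were higher there (Eif2s3x, Eif2b4 and Eif3c) and Eef1a1, a textbook TOP gene. Capitals mark a run by this rule. Whether such a run is the TOP motif of the mRNA was not tested, for Eef1a1 as for the others. The window of Eef2 held no run.
Eif3f (chr7:108934400-108934429, plus strand): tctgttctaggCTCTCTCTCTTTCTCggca
Eif3m (chr2:105017013-105017042, minus strand): ttttccggtcggcgtgtttctggatcggag
Eef1e1 (chr13:38659014-38659043, minus strand): tcaaggtcctagctgtgcaggccccgcctc
Eif2s3x (chrX:94212637-94212666, minus strand): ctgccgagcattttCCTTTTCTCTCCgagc
Eif2b4 (chr5:31193125-31193154, minus strand): cgggacccagtgcacgccggaagttgtagt
Eif3c (chr7:126566352-126566381, minus strand): ctcacctgctcagagggactcggcagctta
Eef1a1 (chr9:78481710-78481739, minus strand): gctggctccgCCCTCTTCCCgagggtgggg
A run stood in 1 of the 3 windows of each direction. Of the 12 tested genes with a run, 2 were higher and 3 lower on injured polysomes, with a median change of -0.02 log2 units; of the 29 without one, 6 were higher and 5 lower, with a median of 0.02. By the wider rule 2 of 14 with a run were higher and 4 lower, and 6 of 27 without one were higher and 4 lower. The search depends on annotated starts and marked a run in 32.6% of all genes but only 61.3% of ribosomal protein genes. This split therefore cannot separate TOP mRNAs from others.

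Arrays of one group correlated at 0.993 to 0.998. The marker genes of neurons (9 of 9), oligodendrocytes (6 of 6) and astrocytes (7 of 7) and 5 of 7 Hox genes of the cord lay above every absent-organism control on all 12 arrays. The single forebrain marker measured lay above them on none. Several measures moved with injury besides the factors. The difference between the 3′ and 5′ probe sets of Gapdh, a sign of RNA integrity, went from 0.23 to 1.40 log2 units in total RNA and from 0.87 to 2.83 on polysomes, and the median of 18 hybridisation spike-ins decreased by 0.48 and 0.32. Each of these changes had p = 0.1, the smallest this design allows (exact permutation test of 3 against 3 arrays, two-sided). Of 8 tested markers of infiltrating myeloid cells, 7 were higher in total RNA of injured cord and none lower; their summed level ranged from 11.44 to 11.78 in sham and from 12.48 to 13.14 in injured cord, and from 10.76 to 10.97 and 11.00 to 11.91 on polysomes. Of the 9 measured, 5 lay above every absent-organism control on all arrays and 1 on none. Of 5 microglial markers, 3 were lower in total RNA and 4 on polysomes. Of the 9 neuron markers 6 were higher in total RNA and 2 lower, and their summed level ranged from 15.46 to 15.54 in sham and from 15.66 to 15.72 in injured cord; after quantile normalization none was higher and 2 were lower. On polysomes 2 were higher and 2 lower, with sums of 15.43 to 15.50 and 15.45 to 15.53. Of the 7 astrocyte markers 5 were higher in total RNA and none lower, 3 of them on all 3 scales described below, with sums of 14.58 to 14.67 in sham and 14.88 to 14.92 in injured cord. On polysomes 3 were higher and 3 lower, with sums of 14.25 to 14.33 and 14.28 to 14.32. The part of these measures in the changes of the factor genes was not tested. Injured polysome arrays 1 and 2 had the lowest array weights in limma (0.21 and 0.47, against 0.89 to 2.08).

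In total RNA, most factor genes were higher in injured than in sham cord. A limma model over the 4 groups, with Benjamini-Hochberg adjustment over the 10371 genes and a threshold of 0.05, called 39 of the 51 genes higher and 2 lower. Over all genes tested, 42.1% were called higher and 18.1% lower. The median change of the factor genes was 0.28 log2 units, and that of all genes 0.12. Bright genes were called higher more often, as a split made after the data were seen shows: among the brightest 25% of all genes 68% were higher, and so were 26 of the 30 factor genes there. These calls moved with the scaling between arrays: the deposited values put the median gene at 0.12, centring at -0.04 and quantile normalization at -0.01. With quantile normalization 16 factor genes were higher and 5 lower (19.5% and 22.6% of all genes), and with each array centred on its median 24 were higher and 3 lower (22.4% and 33.5%). The calls that were made alike on the deposited, centred and quantile scales were 14 higher (14.9% of all genes) and 2 lower (11.2%).

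On polysomes the picture was divided, with 12 of the 51 factor genes higher and 10 lower, against 13.7% and 25.3% of all genes. Their median change was 0.01 log2 units and that of all genes -0.04. Quantile normalization gave 17 higher and 10 lower (19.9% and 20.3% of all genes), and centring gave 20 higher and 9 lower (23.8% and 17.8%); 11 genes were higher and 9 lower on all 3 scales (13.4% and 17.5% of all genes). The injury change on polysomes minus that in total RNA, the interaction of the model, was below 0 at the threshold for 28 factor genes and above 0 for 3, against 39.3% and 11% of all genes. Its median was -0.28 for the factor genes and -0.16 for all genes, a median that centring put at 0.07 and quantile normalization at 0.01. That count rested on scale as well: 8 genes were below 0 and 4 above it after quantile normalization (16.8% and 17.5% of all genes), 12 and 7 after centring (18% and 32.1%), and 8 and 2 on all 3 scales (12.8% and 7.13% of all genes). Those 10 were Eif1a, Eif5b, Eif2ak1, Eif3f, Eif3h, Eif3m, Eif4e and Eef1e1 below 0 and Eif3c and Eif4e3 above it; the other 21 factor genes whose interaction was called on the deposited scale lost that call on at least 1 other scale. Among the brightest 25% of all genes, 58.5% had an interaction called below 0 and 2.89% above it on the deposited scale. Of the 30 factor genes among them, 16 and 1 were so called, with a median of -0.26 against -0.34 for all those genes. Without injured polysome arrays 1 and 2, a setting chosen after the data were seen, 13 genes were higher and 8 lower on polysomes, and the interaction was below 0 for 27 and above it for 1. The shares of all genes in that setting are not given here.

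**Figure D1:**
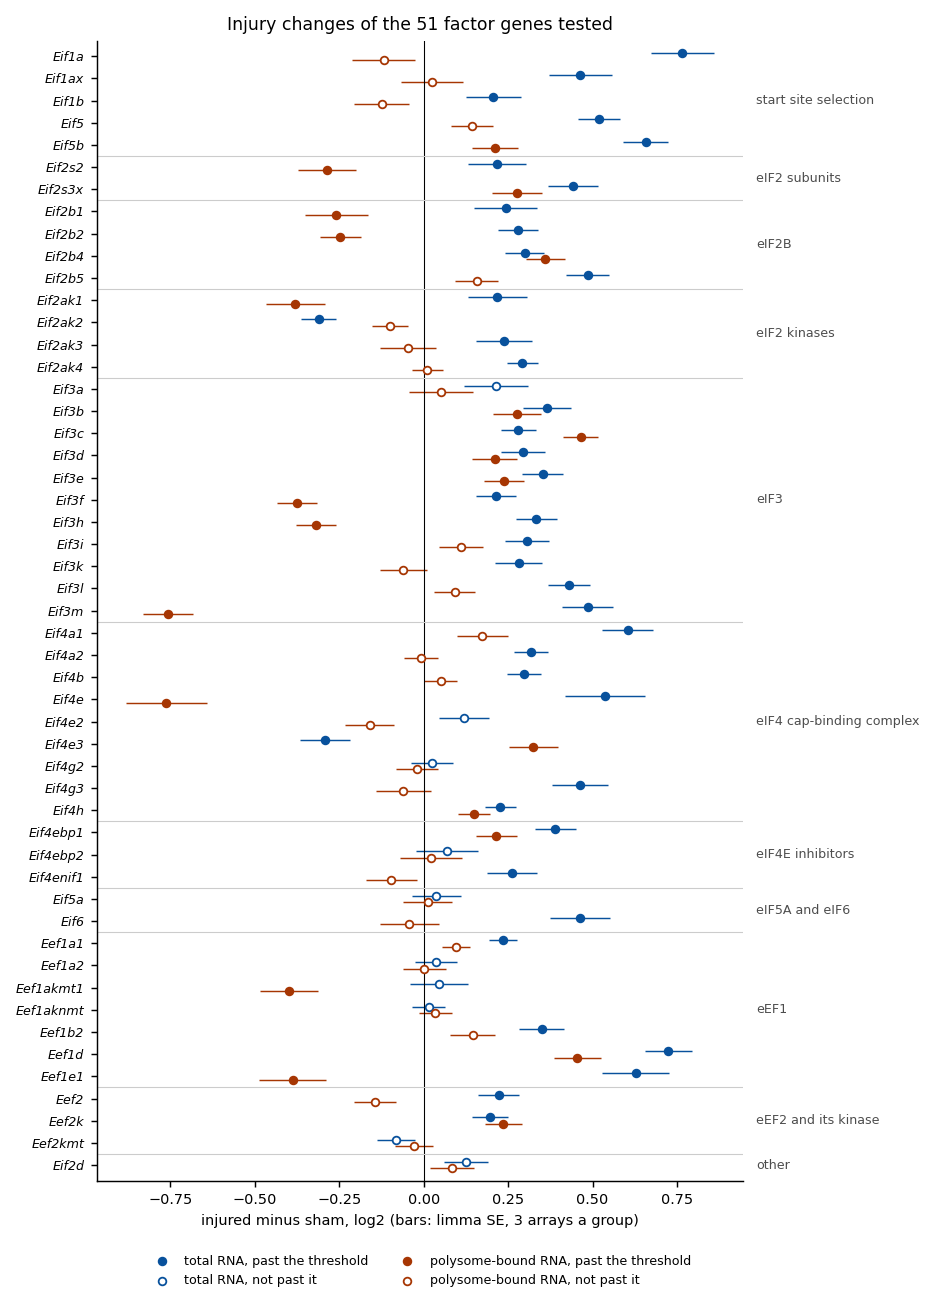
Change from sham to injured cord (log2, horizontal axis) of the 51 tested factor genes, grouped by complex, in total RNA (blue) and polysome-bound RNA (brown); filled points passed the adjusted p threshold of 0.05, open points did not, and bars show the standard error of each change (limma, 3 arrays per group). The blue points lie mostly to the right of 0 (39 called higher, 2 lower), while the brown points spread to both sides (12 higher, 10 lower), with Eif4e and Eif3m farthest apart between the fractions.

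The genes of start codon selection and subunit joining were higher together in total RNA on the deposited scale. All 5 (Eif1a, Eif1ax, Eif1b, Eif5 and Eif5b) were higher in injured cord, and 4 of them on all 3 scales. The exception was Eif1b, which gave 0.05 after centring and -0.10 after quantile normalization. Its call was lost without any sham array or injured array 1 or 2 of total RNA, or sham polysome array 1 (0.17 to 0.25). Eif1a encodes eIF1A, which keeps the small subunit in a scanning state. In total RNA it stood at 8.89, 8.90 and 9.01 in sham and 9.78, 9.74 and 9.59 in injured cord. On polysomes it stood at 9.30, 9.32 and 9.29 in sham and 8.94, 9.38 and 9.25 in injured cord. Every injured array of total RNA lay above every sham array, whereas on polysomes the groups overlapped and injured array 1 was the lowest. The change was 0.77 (SE 0.09, adjusted p = 2.1e-05) in total RNA, a 1.7-fold rise, against -0.12 (SE 0.09, adjusted p = 0.35) on polysomes. The interaction was -0.88 (SE 0.13, adjusted p = 1.9e-04). A dimmer probe set of Eif1a gave 0.82, 0.27 and -0.55.

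Eif5b encodes the GTPase that joins the large ribosomal subunit. Its total RNA stood at 8.63, 8.67 and 8.72 in sham and 9.38, 9.33 and 9.28 in injured cord, and its polysome-bound RNA at 8.66, 8.51 and 8.66 and 8.70, 8.88 and 8.88. Sham and injured arrays did not overlap in either fraction. It rose by 0.66 (SE 0.07, adjusted p = 5.1e-06) in total RNA and by 0.21 (SE 0.07, adjusted p = 0.024) on polysomes, where no other gene of the class was called on the deposited scale. The interaction was -0.45 (SE 0.10, adjusted p = 0.002). The polysome call was lost without sham polysome array 2 or injured polysome array 2 or 3 (0.16 to 0.27 when single arrays were left out), and the second brightest probe set gave an interaction of 0.04. Eif5, whose product triggers GTP hydrolysis on eIF2, stood at 11.71, 11.64 and 11.66 in sham and 12.19, 12.26 and 12.11 in injured total RNA, a change of 0.52 (SE 0.06, adjusted p = 1.7e-05), with no overlap. Its polysome change was 0.14 (SE 0.06, adjusted p = 0.081) and its interaction -0.38 (SE 0.09, adjusted p = 0.0031). After centring and quantile normalization its polysome change was called (0.23 and 0.16) and its interaction was not (-0.14 and -0.07). Its 4 probe sets did not move alike: the second brightest gave -0.14 in total RNA and 0.40 for the interaction, and the other 2 gave 0.57 and 0.37 in total RNA.

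Both tested subunit genes of eIF2 were higher in total RNA, though neither after quantile normalization, and they parted on polysomes. Eif2s1, the subunit that the stress kinases phosphorylate, has no single-gene probe set here and was not analysed. Eif2s3x, the X-linked gene of the GTP-binding subunit, stood at 10.71, 10.64 and 10.66 in sham and 11.11, 11.13 and 11.10 in injured total RNA. On polysomes the values were 11.13, 11.03 and 10.98 in sham and 11.14, 11.47 and 11.36 in injured cord. Injured arrays lay above sham arrays in both fractions, by 0.44 (SE 0.07, adjusted p = 2.3e-04) and 0.28 (SE 0.07, adjusted p = 0.009); the interaction of -0.17 (SE 0.10, adjusted p = 0.2) did not pass. The second brightest probe set gave 0.52 and 0.29, and the dimmest -0.61 and -0.14. Eif2s2 stood at 11.16, 11.14 and 11.19 on sham against 11.46, 11.38 and 11.30 on injured arrays of total RNA, and at 11.36, 11.41 and 11.28 against 10.83, 11.24 and 11.12 on polysomes. The groups did not overlap in either fraction, with injured arrays above sham in total RNA and below it on polysomes. The changes were 0.22 (SE 0.09, adjusted p = 0.041) and -0.29 (SE 0.09, adjusted p = 0.016). The interaction was -0.50 (SE 0.12, adjusted p = 0.004). The call in total RNA was absent from 6 of the 12 fits without 1 array (any sham array of total RNA, injured array 1 or 2 of total RNA, or sham polysome array 1; 0.18 to 0.26) and turned to -0.08 after quantile normalization. That on polysomes was lost without sham polysome array 2 (-0.38 to -0.17 over single arrays left out), and its other 4 tested probe sets gave 0.36, -0.73, 0.21 and 0.08 there.

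All 4 measured genes of eIF2B, the exchange factor that recharges eIF2, were higher in total RNA, but only Eif2b5 was so on all 3 scales. On polysomes 1 of the 4 was higher (Eif2b4) and 2 were lower (Eif2b1 and Eif2b2). Eif2b4, the delta subunit, stood at 9.39, 9.40 and 9.40 in sham and 9.76, 9.70 and 9.62 in injured total RNA. Its polysome-bound RNA stood at 10.39, 10.49 and 10.41 in sham and 10.81, 10.73 and 10.84 in injured cord. Injured arrays were higher in both fractions without overlap, by 0.30 (SE 0.06, adjusted p = 7.4e-04) and 0.36 (SE 0.06, adjusted p = 3.1e-04). The interaction was 0.06 (SE 0.08, adjusted p = 0.55), but it was called above 0 after centring (0.30) and quantile normalization (0.35). The change in total RNA was 0.04 after quantile normalization, while that on polysomes kept its call on all 3 scales.

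Eif2b5, the catalytic epsilon subunit, stood at 9.17, 9.12 and 9.15 in sham and 9.67, 9.67 and 9.56 in injured total RNA. It rose by 0.49 (SE 0.06, adjusted p = 3.7e-05) there, with no overlap, against 0.16 (SE 0.06, adjusted p = 0.066) on polysomes. The interaction was -0.33 (SE 0.09, adjusted p = 0.0086). After centring and quantile normalization the polysome change was called (0.24 and 0.23) and the interaction was not (-0.09 and -0.03). Eif2b2, the beta subunit, stood at 9.96, 9.90 and 9.84 on sham and 9.69, 9.70 and 9.57 on injured polysomes, with every injured array below every sham array. It was lower there, with a change of -0.25 (SE 0.06, adjusted p = 0.005), and higher in total RNA by 0.28 (SE 0.06, adjusted p = 0.0014), and the interaction was -0.53 (SE 0.08, adjusted p = 3.2e-04). The 2 dimmer probe sets of the gene were also called lower on polysomes (-0.35 and -0.29). The call of Eif2b1, the alpha subunit, on polysomes, -0.26 (SE 0.09, adjusted p = 0.039), was made in 3 of the 12 fits without 1 array. It was lost without any sham array of either fraction, injured array 1 or 2 of total RNA or injured polysome array 1 (-0.34 to -0.11).

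Among the 4 kinases that phosphorylate eIF2, 3 were higher in total RNA (Eif2ak1, Eif2ak3 and Eif2ak4) and Eif2ak2 was lower, but after quantile normalization only Eif2ak4 was higher and Eif2ak2 lower. Eif2ak4 encodes GCN2, which senses uncharged tRNA. It stood at 7.86, 7.79 and 7.79 in sham and 8.13, 8.11 and 8.08 in injured total RNA and at 7.15, 7.08 and 7.10 and 7.14, 7.13 and 7.10 on polysomes. The total RNA groups were apart by 0.29 (SE 0.05, adjusted p = 1.3e-04), the polysome groups overlapped with a change of 0.01 (SE 0.05, adjusted p = 0.87), and the interaction was -0.28 (SE 0.06, adjusted p = 0.003). Eif2ak1, the heme-regulated kinase HRI, stood at 9.21, 9.35 and 9.24 on sham and 8.65, 8.98 and 9.04 on injured polysomes, again without overlap. It was lower there, with a change of -0.38 (SE 0.09, adjusted p = 0.0034), and a second probe set gave -0.44. In total RNA the brightest probe set gave 0.22 (SE 0.09, adjusted p = 0.043), called in 5 of the 12 fits without 1 array (0.20 to 0.25; lost without any sham array or injured array 1 or 2 of total RNA, or sham polysome array 1 or 3). The second gave -0.41. The interaction was -0.60 (SE 0.12, adjusted p = 0.0015).

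Eif2ak2, the kinase PKR that binds double-stranded RNA, stood at 7.38, 7.31 and 7.43 in sham and 7.05, 7.09 and 7.04 in injured total RNA, a change of -0.31 (SE 0.05, adjusted p = 2.6e-04) with no overlap. On polysomes it stood at 6.18, 6.03 and 6.18 and 6.08, 6.04 and 5.97, and it exceeded all of the absent-organism controls on every array of total RNA but on no polysome array. Its polysome level was thus not above background in either group, and its change there is not given. The interaction of 0.21, which rests on those polysome values, (SE 0.07, adjusted p = 0.03) was called in 6 of the 12 fits without 1 array (0.16 to 0.24; lost without sham or injured array 1 or 3 of total RNA, sham polysome array 2 or injured polysome array 1), and a second probe set gave 0.00 in total RNA. Eif2ak3, the endoplasmic reticulum kinase PERK, stood at 9.03, 9.01 and 9.05 in sham and 9.35, 9.31 and 9.14 in injured total RNA. Its change of 0.24 (SE 0.08, adjusted p = 0.023) was lost without sham or injured array 1 or 2 of total RNA (0.20 to 0.30), was -0.20 by its second probe set, and was -0.05 (SE 0.08, adjusted p = 0.69) on polysomes.

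The eIF3 genes, which encode the scaffold that holds the small subunit and the mRNA together, moved in both directions on polysomes. In total RNA 10 of 11 were higher, all but Eif3a, although only Eif3l and Eif3m were higher after quantile normalization. On polysomes Eif3b, Eif3c, Eif3d and Eif3e were higher and Eif3f, Eif3h and Eif3m lower, the same 7 genes on all 3 scales, and Eif3a, Eif3i, Eif3k and Eif3l did not pass on the deposited scale. The call of Eif3d was lost without sham polysome array 1 or 2 or injured polysome array 2 (0.15 to 0.25). The products of Eif3f, Eif3h and Eif3m form a module within eIF3; that grouping was made after their values were seen. Eif3m stood at 9.58, 9.63 and 9.63 in sham and 10.09, 10.11 and 10.09 in injured total RNA, and at 9.12, 9.19 and 9.26 in sham and 8.24, 8.55 and 8.50 in injured polysome-bound RNA. The groups were apart in both fractions and in opposite directions, as the plot of values by array shows. Eif3m rose by 0.49 (SE 0.07, adjusted p = 1.2e-04) in total RNA and fell to a 1.69-fold lower level on polysomes, -0.76 (SE 0.07, adjusted p = 6.2e-06). The interaction was -1.24 (SE 0.11, adjusted p = 7.9e-06).

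Eif3f stood at 11.10, 11.11 and 10.99 on sham and 10.65, 10.78 and 10.66 on injured polysomes, and Eif3h at 10.52, 10.66 and 10.61 and 10.20, 10.30 and 10.34. For both genes every injured polysome array lay below every sham array. The polysome changes were -0.37 (SE 0.06, adjusted p = 2.5e-04) for Eif3f and -0.32 (SE 0.06, adjusted p = 9.0e-04) for Eif3h. The interactions were -0.59 (SE 0.08, adjusted p = 1.4e-04) and -0.65 (SE 0.09, adjusted p = 8.2e-05). In total RNA Eif3f gave 0.21 (SE 0.06, adjusted p = 0.007), which turned to -0.09 after quantile normalization, and Eif3h gave 0.33 (SE 0.06, adjusted p = 4.0e-04), which was 0.04 there. Eif3f, Eif3h and Eif3m kept their polysome and interaction calls in all 12 fits that left out 1 array, and none of the 3 has a second probe set that passed the filter. The pyrimidine run printed above for Eif3f has no counterpart in the window of Eif3m.

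Eif3c stood at 10.99, 10.95 and 11.01 in sham and 11.33, 11.23 and 11.23 in injured total RNA. The polysome arrays read 11.75, 11.75 and 11.77 in sham and 12.26, 12.25 and 12.16 in injured cord. Injured arrays lay above sham arrays in both fractions, by 0.28 (SE 0.05, adjusted p = 4.6e-04) and 0.46 (SE 0.05, adjusted p = 1.5e-05), although the change in total RNA was -0.02 after quantile normalization. The second brightest probe set gave 0.47 and 0.42, but the 2 probe sets without a mark for possible cross-hybridisation gave 0.45 and -0.17, and -0.79 and 0.48. The interaction of 0.18 (SE 0.07, adjusted p = 0.047) passed only without injured array 1 of total RNA or injured polysome array 3 among the 12 fits without 1 array (0.17 to 0.22), was lost with replicate number as a block (adjusted p = 0.067 in limma), and was -0.05 by the second brightest probe set. Eif3e rose by 0.35 (SE 0.06, adjusted p = 2.7e-04) in total RNA and 0.24 (SE 0.06, adjusted p = 0.0064) on polysomes, where its second probe set fell by 0.28. Eif3l gave 0.43 (SE 0.06, adjusted p = 6.8e-05) and 0.09 (SE 0.06, adjusted p = 0.26), and its polysome change was called after centring (0.18) and quantile normalization (0.16). Eif3k gave 0.28 (SE 0.07, adjusted p = 0.0037), -0.03 after quantile normalization, and -0.06 (SE 0.07, adjusted p = 0.53). Eif3a, the largest subunit, stood at 10.70, 10.66 and 10.89 in sham and 11.05, 10.93 and 10.90 in injured total RNA; its change of 0.21 (SE 0.09, adjusted p = 0.064) did not pass, whereas its second brightest probe set gave 0.58.

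**Figure D2:**
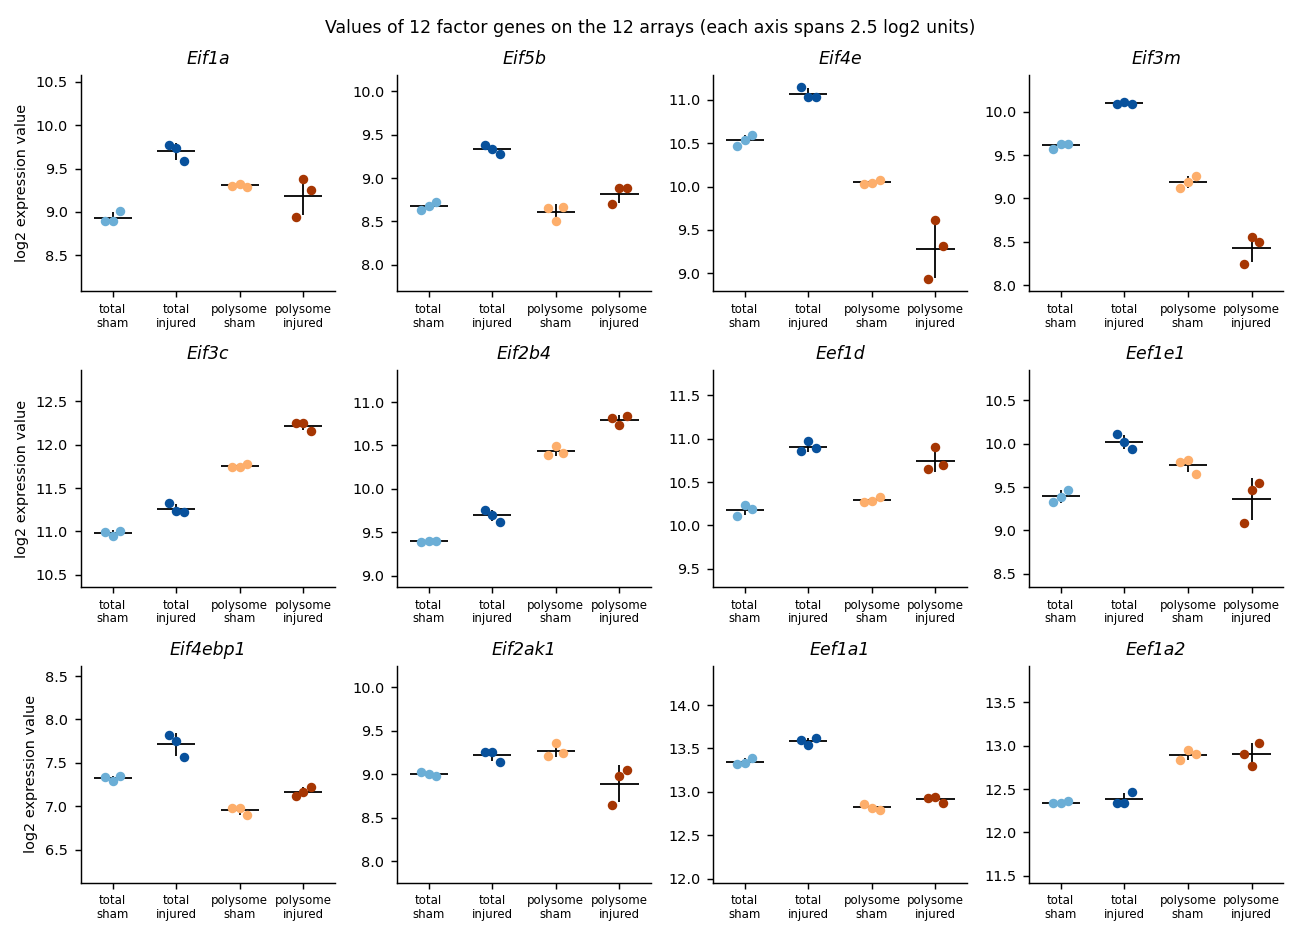
Deposited log2 expression values (vertical axis, 2.5 log2 units in every panel) of 12 factor genes on the 12 arrays, by group; points are arrays, horizontal lines group means and vertical lines SDs (n = 3). Eif4e, Eif3m and Eef1e1 go up in total RNA and down on polysomes after injury, Eif3c, Eif2b4 and Eef1d go up in both, and Eef1a2 overlaps between sham and injured arrays in both.

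Of the 9 genes of the eIF4 cap-binding complex, 6 were higher in total RNA (Eif4a1, Eif4a2, Eif4b, Eif4e, Eif4g3 and Eif4h) and Eif4e3 was lower; only Eif4a1 and Eif4e remained higher on all 3 scales. Eif4g1, the main scaffold gene, has no single-gene probe set here and was not analysed. Eif4e, the cap-binding protein, stood at 10.47, 10.54 and 10.59 in sham and 11.15, 11.03 and 11.03 in injured total RNA. On polysomes the values were 10.04, 10.04 and 10.07 in sham and 8.93, 9.61 and 9.31 in injured cord. Injured arrays lay above sham in total RNA and below it on polysomes, where injured array 1 was lowest, and the changes were 0.54 (SE 0.12, adjusted p = 0.0017) in total RNA and -0.76 (SE 0.12, adjusted p = 2.3e-04) on polysomes. The interaction of -1.30 (SE 0.17, adjusted p = 7.9e-05) was the largest in size of the 51 genes. That polysome change was seen by 1 of the 3 probe sets. The others gave 0.01 and -0.06 on polysomes, 0.24 and 0.20 in total RNA and -0.23 and -0.26 for the interaction, neither of which passed.

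Eif4e3, a divergent member of the cap-binding family, ran the other way by its brightest probe set. It stood at 8.33, 8.32 and 8.31 in sham and 8.17, 7.95 and 7.97 in injured total RNA. Its polysome-bound RNA stood at 8.86, 8.71 and 8.62 in sham and 9.01, 9.13 and 9.03 in injured cord. It was lower in total RNA and higher on polysomes, without overlap in either, with changes of -0.29 (SE 0.07, adjusted p = 0.004) and 0.33 (SE 0.07, adjusted p = 0.0032). The interaction was 0.62 (SE 0.10, adjusted p = 4.3e-04). Its second probe set reversed all of these, with 0.14, -0.18 and -0.32. Eif4a1, the main helicase, stood at 10.78, 10.59 and 10.82 in sham and 11.43, 11.38 and 11.20 in injured total RNA, a change of 0.60 (SE 0.08, adjusted p = 2.6e-05). Its polysome change was 0.17 (SE 0.08, adjusted p = 0.086), but it was called after centring (0.26) and quantile normalization (0.20). The 2 other probe sets of Eif4a1 gave -0.51 and -0.72 in total RNA.

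Eif4a2, the helicase paralogue of neural tissue, has 1 probe set; it stood at 12.48, 12.42 and 12.57 in sham and 12.75, 12.81 and 12.86 in injured total RNA. The polysome arrays read 12.72, 12.74 and 12.65 in sham and 12.68, 12.72 and 12.68 in injured cord. The total RNA groups were apart and the polysome groups overlapped. Its changes were 0.32 (SE 0.05, adjusted p = 1.4e-04) and -0.01 (SE 0.05, adjusted p = 0.91), with an interaction of -0.33 (SE 0.07, adjusted p = 0.002). Eif4b and Eif4h, which stimulate the helicase, were higher in total RNA by 0.30 (SE 0.05, adjusted p = 2.3e-04) and 0.23 (SE 0.05, adjusted p = 0.0011), but gave -0.0033 and -0.02 after quantile normalization. On polysomes Eif4h was higher by 0.15 (SE 0.05, adjusted p = 0.022), a call lost without sham polysome array 3 or injured polysome array 2 (0.12 to 0.18), and Eif4b gave 0.05 (SE 0.05, adjusted p = 0.46).

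Of the 3 genes of the eIF4E inhibitors, 2 were higher in total RNA (Eif4ebp1 and Eif4enif1) and 1 on polysomes (Eif4ebp1). Only the calls of Eif4ebp1 were made on all 3 scales. Eif4ebp1 encodes the 4E-BP that mTOR releases from eIF4E by phosphorylation. It stood at 7.34, 7.29 and 7.35 in sham and 7.83, 7.75 and 7.57 in injured total RNA. On polysomes the values were 6.98, 6.98 and 6.90 in sham and 7.12, 7.17 and 7.22 in injured cord. Injured arrays lay above sham arrays in both fractions, by 0.39 (SE 0.06, adjusted p = 1.4e-04) and 0.22 (SE 0.06, adjusted p = 0.012); the call on polysomes was lost without sham polysome array 3 (0.19 to 0.24). The second brightest probe set gave 0.56 and 0.23, both called, and the dimmest -0.02 and 0.06. Eif4ebp2, the 4E-BP of neurons, stood at 7.63, 7.45 and 7.35 in sham and 7.65, 7.64 and 7.35 in injured total RNA. Sham and injured arrays overlapped, with changes of 0.07 (SE 0.09, adjusted p = 0.53) there and 0.02 (SE 0.09, adjusted p = 0.87) on polysomes, but its 3 other tested probe sets were lower in total RNA (-0.49, -0.27 and -0.32). Eif4enif1, which carries eIF4E into the nucleus and into processing bodies, rose by 0.26 (SE 0.07, adjusted p = 0.0084) in total RNA and gave -0.10 (SE 0.07, adjusted p = 0.34) on polysomes. Its rise in total RNA was not called after centring (0.11) or quantile normalization (0.04).

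Eif5a, whose product helps ribosomes through stretches such as prolines, stood at 12.23, 12.18 and 12.31 in sham and 12.30, 12.25 and 12.29 in injured total RNA. Its polysome-bound RNA stood at 12.74, 12.81 and 12.64 in sham and 12.55, 12.80 and 12.87 in injured cord. Its groups overlapped in both fractions, with changes of 0.04 (SE 0.07, adjusted p = 0.67) and 0.01 (SE 0.07, adjusted p = 0.91), although after quantile normalization it was called lower in total RNA (-0.20). Eif6, which keeps free large subunits from joining small ones, stood at 9.25, 9.27 and 9.32 in sham and 9.79, 9.74 and 9.72 in injured total RNA. That rise of 0.46 (SE 0.09, adjusted p = 6.1e-04) had no overlap and was called on all 3 scales, while the change on polysomes was -0.04 (SE 0.09, adjusted p = 0.74) and the interaction -0.50 (SE 0.12, adjusted p = 0.0047).

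Of the 7 genes of the eEF1 class, 4 were higher in total RNA (Eef1a1, Eef1b2, Eef1d and Eef1e1), and Eef1d and Eef1e1 were so on all 3 scales. Eef1d, a subunit of the exchange factor that recharges eEF1A, stood at 10.11, 10.24 and 10.20 in sham and 10.86, 10.97 and 10.89 in injured total RNA. The polysome arrays read 10.27, 10.28 and 10.33 in sham and 10.65, 10.90 and 10.69 in injured cord. Injured arrays lay above sham arrays in both fractions without overlap. The rise was 1.65-fold in total RNA, 0.72 (SE 0.07, adjusted p = 3.0e-06), and 1.37-fold on polysomes, 0.46 (SE 0.07, adjusted p = 2.0e-04). The interaction of -0.27 (SE 0.10, adjusted p = 0.035) was called only without sham array 2 or injured array 1 of total RNA or injured polysome array 2 among the 12 fits without 1 array (-0.35 to -0.22), and it turned to 0.05 after quantile normalization. The second brightest probe set gave 0.59, 0.59 and 0.00, and the dimmest -0.12 and -0.09 for the injury changes. Eef1e1 encodes AIMP3, a part of the multi-tRNA synthetase complex that is named for its likeness to elongation factors. It stood at 9.33, 9.38 and 9.47 in sham and 10.11, 10.02 and 9.94 in injured total RNA. On polysomes the values were 9.79, 9.81 and 9.66 in sham and 9.09, 9.46 and 9.54 in injured cord. Sham and injured arrays were apart in both fractions, upward in total RNA by 0.63 (SE 0.10, adjusted p = 1.5e-04) and downward on polysomes with -0.39 (SE 0.10, adjusted p = 0.0069). The interaction of -1.02 (SE 0.14, adjusted p = 1.2e-04) held on all 3 scales and in all 12 fits without 1 array.

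Eef1a1, the elongation factor gene of most cells, stood at 13.32, 13.34 and 13.39 in sham and 13.59, 13.54 and 13.62 in injured total RNA. Its polysome-bound RNA stood at 12.86, 12.81 and 12.79 in sham and 12.92, 12.94 and 12.88 in injured cord. The groups did not overlap in either fraction, but the changes were small, 0.23 (SE 0.04, adjusted p = 3.4e-04) and 0.09 (SE 0.04, adjusted p = 0.087), and the first was 0.04 after quantile normalization. Eef1a2, the isoform of neurons and muscle, stood at 12.33, 12.34 and 12.37 and 12.34, 12.34 and 12.46 in sham and injured total RNA and at 12.84, 12.95 and 12.90 and 12.91, 12.76 and 13.03 on polysomes. Its groups overlapped in both fractions, with changes of 0.04 (SE 0.06, adjusted p = 0.64) and 0.00 (SE 0.06, adjusted p = 0.98), although after quantile normalization it too was called lower in total RNA (-0.21). Eef1akmt1, a lysine methyltransferase of eEF1A, stood at 9.13, 9.26 and 9.11 on sham and 8.60, 8.77 and 8.94 on injured polysomes. It fell there without overlap, with a change of -0.40 (SE 0.09, adjusted p = 0.0023), and gave 0.05 (SE 0.09, adjusted p = 0.66) in total RNA, and 2 of its 3 other probe sets were also called lower on polysomes (-0.67 and -0.36).

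Eef2, the translocation factor, stood at 12.25, 12.26 and 12.27 in sham and 12.48, 12.44 and 12.53 in injured total RNA, a difference of 0.22 (SE 0.06, adjusted p = 0.0071) with no overlap that turned to -0.03 after quantile normalization. On polysomes it stood at 11.87, 11.94 and 11.88 and 11.66, 11.91 and 11.70, and the change of -0.14 (SE 0.06, adjusted p = 0.079) did not pass. Eef2k, the kinase that inactivates eEF2, stood at 7.50, 7.42 and 7.42 in sham and 7.65, 7.68 and 7.60 in injured total RNA. The polysome arrays read 7.23, 7.19 and 7.25 in sham and 7.53, 7.49 and 7.36 in injured cord. Injured arrays were higher in both fractions without overlap, by 0.20 (SE 0.05, adjusted p = 0.0065) and 0.24 (SE 0.05, adjusted p = 0.0033); the call on polysomes held on all 3 scales and that in total RNA did not. Eif2d, which can deliver initiator tRNA without GTP and falls in no complex above, passed in neither fraction.

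A gene's probe sets often differed. Of the 27 genes with at least 2 tested probe sets, 20 were called in total RNA by the brightest; the second brightest was called in the same direction for 10 of them, in the opposite direction for 3 (Eif2ak1, Eif2ak3 and Eif4a1) and not called for 7. On polysomes 13 were called, and the second brightest gave the same direction for 7, the opposite for 3 (Eif2s2, Eif3e and Eif4e3) and no call for 3. For the interaction these numbers were 15, 5, 3 and 7. For the fraction differences described below they were 22, 13, 5 and 4 in sham cord and 22, 9, 8 and 5 in injured cord. A stricter rule kept calls that were alike on all 3 scales and present in all 12 fits without 1 array. Where other probe sets were tested, at least 1 had to be called in the same direction and none in the opposite one. Values of opposite sign that did not pass were allowed, such as -0.14 for Eif5 in total RNA. In total RNA 13 calls held, all higher: Eif1a, Eif1ax, Eif5, Eif5b, Eif2b5, Eif2ak4, Eif3l, Eif3m, Eif4e, Eif4ebp1, Eif6, Eef1d and Eef1e1. On polysomes there were 13 such calls, with Eif2s3x, Eif2b4, Eif3b, Eif3c, Eef1d and Eef2k higher and Eif2b2, Eif2ak1, Eif3f, Eif3h, Eif3m, Eef1akmt1 and Eef1e1 lower. For the interaction there were 5, all below 0: Eif1a, Eif3f, Eif3h, Eif3m and Eef1e1. Of these genes only Eif1a has another tested probe set, so the rest met the probe set condition by default. So did Eif2b5, Eif2ak4, Eif3l and Eif6 in total RNA and Eif2b4, Eif3b and Eef2k on polysomes. The share of all genes under this rule was not computed.

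**Figure D3:**
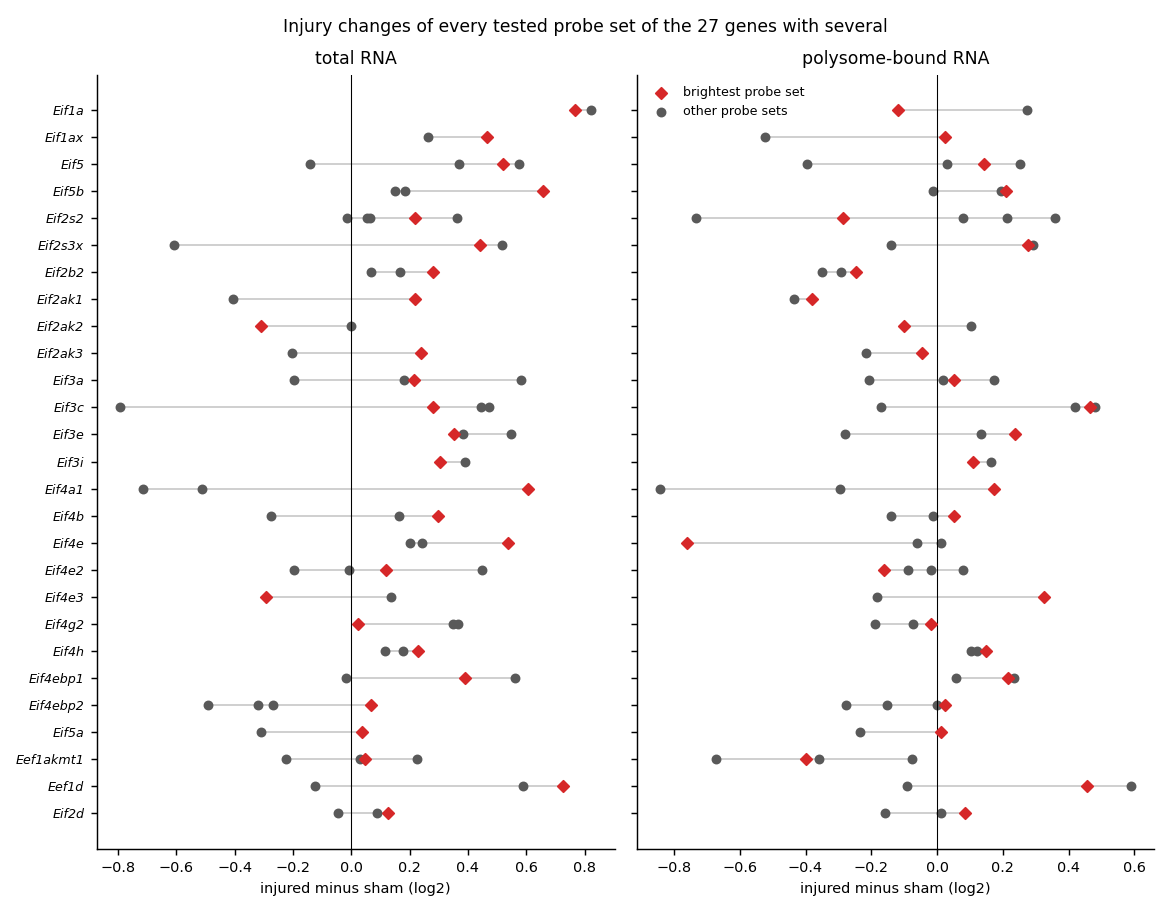
Change from sham to injured cord (log2, horizontal axis) of each tested probe set of the 27 factor genes with at least 2, in total RNA (left) and polysome-bound RNA (right); red diamonds are the brightest probe set of a gene and grey points the others, joined by a line. Eif4a1 and Eif3c reach from below 0 to above it in total RNA, and the brightest probe set of Eif4e lies at -0.76 on polysomes while its other probe sets lie near 0.

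The fraction difference, polysome-bound minus total RNA with each array centred on its median, was above 0 for 32 factor genes and below 0 for 9 in sham cord, against 37.6% and 39.1% of all genes. In injured cord 28 were above and 13 below it, against 43.6% and 28.7%. The medians of the factor genes were 0.31 and 0.19, and those of all genes -0.03 and 0.10. On the deposited scale, which puts the median gene at -0.30 and -0.41, the counts were 20 above and 17 below in sham cord and 10 and 33 in injured cord, and quantile normalization gave 23 and 18, and 17 and 18, so only differences called on every scale are described by direction. There were 18 such genes above and 7 below in sham cord (18.5% and 24.6% of all genes), and 10 and 12 in injured cord (13.6% and 27.6%). Of these 25 and 22 calls, 7 and 5 were opposed by a call of another probe set, and 15 and 14 held under the stricter rule above. Among the brightest 25% of all genes, 72.8% were called above 0 and 12.7% below it in sham cord on the centred scale. In injured cord these shares were 62.2% and 20.8%. Of the 30 factor genes among them, 23 and 2 were so called in sham cord, and 21 and 6 in injured cord.

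Eif2b4 had the largest fraction difference of the factor genes in sham cord, 1.31 (SE 0.06, adjusted p = 7.1e-11), and stood at 1.61 (SE 0.06, adjusted p = 3.4e-12) in injured cord. Eif3c followed with 1.05 (SE 0.06, adjusted p = 2.0e-10) and 1.47 (SE 0.06, adjusted p = 2.7e-12), although without its probe sets marked for cross-hybridisation the injured value was -0.07. Eif3k gave 0.95 (SE 0.07, adjusted p = 3.9e-09) and 0.85 (SE 0.07, adjusted p = 1.0e-08). Among the genes above background in both fractions, the most negative values in sham cord on the centred scale were those of Eif4enif1 and Eif2ak4. Eif4enif1 gave -0.50 (SE 0.06, adjusted p = 1.1e-06) and -0.62 (SE 0.06, adjusted p = 7.3e-08), and Eif2ak4 -0.43 (SE 0.06, adjusted p = 4.0e-06) and -0.47 (SE 0.06, adjusted p = 1.2e-06). That order depended on scale: after quantile normalization Eif4e (-0.63) and Eef1a1 (-0.62), among others, lay below Eif2ak4 (-0.23) in sham cord. Eif2ak2 was not above background on polysomes, so its difference is only bounded: with its polysome level set to the highest absent-organism control of each array, it was -0.64 in sham and -0.11 in injured cord (-0.97 and -0.52 as measured), and its second probe set gave 0.11 and 0.40. Both elongation factor isoforms had differences of one sign in sham and injured cord. Eef1a1 was lower on polysomes than in total RNA, with -0.26 (SE 0.05, adjusted p = 3.6e-04) in sham and -0.16 (SE 0.05, adjusted p = 0.013) in injured cord (lost without injured array 3 of total RNA, -0.21 to -0.13). Eef1a2 was higher on polysomes, with 0.83 (SE 0.08, adjusted p = 6.6e-08) and 1.03 (SE 0.08, adjusted p = 3.3e-09). Eif3m went from -0.15 (SE 0.06, adjusted p = 0.028) to -1.15 (SE 0.06, adjusted p = 4.0e-11); its call in sham cord was lost without array 2 or 3 of total RNA or array 1 or 2 of polysomes (-0.18 to -0.12). Eif4e went from -0.21 (SE 0.09, adjusted p = 0.039), called in 7 of the 12 fits without 1 array (-0.25 to -0.19; lost without sham array 2 or 3 of total RNA or any sham polysome array), to -1.27 (SE 0.09, adjusted p = 1.9e-09) by its brightest probe set, and from 0.82 to 0.78 by the second.

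**Figure D4:**
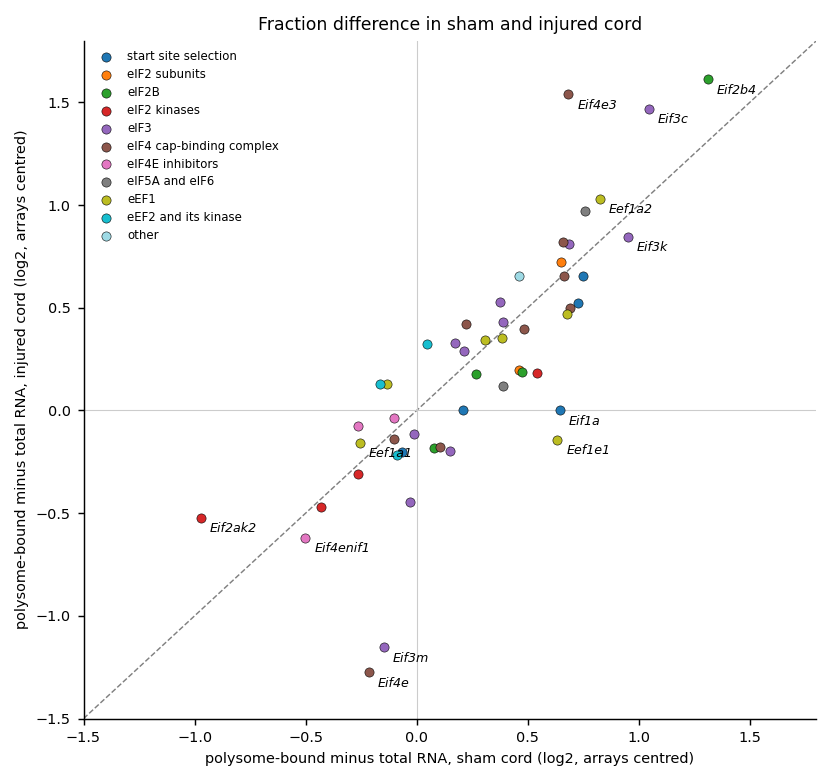
Polysome-bound minus total RNA (log2, arrays centred on their medians) of the 51 tested factor genes in sham cord (horizontal axis) and injured cord (vertical axis), coloured by complex; the dashed line marks equal values. By their brightest probe sets, Eif4e, Eif3m, Eef1e1 and Eif1a lie below the line and Eif4e3 and Eif3c above it.

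Other genes of translational control were taken from a list of 51 genes outside the factor families, of which 45 were tested. In total RNA 31 were higher and 5 lower, on polysomes 10 were higher and 15 lower, and the interaction was above 0 for 4 and below it for 24, with medians of 0.30, 0.01 and -0.30. Over all genes tested 42.1% were higher and 18.1% lower in total RNA, 13.7% and 25.3% on polysomes, and 11% above and 39.3% below 0 for the interaction. These counts moved with scale too. After quantile normalization they were 11 higher and 8 lower in total RNA, 15 and 12 on polysomes, and 9 above and 12 below 0, and after centring 17 and 7, 15 and 9, and 9 and 13. On all 3 scales they were 11 and 4 (14.9% and 11.2% of all genes), 10 and 9 (13.4% and 17.5%), and 3 and 10 (7.13% and 12.8%). In total RNA 10 of 12 genes of the eIF2 phosphorylation branch were higher and 1 was lower, with 5 higher on all 3 scales. The change was 0.80 (SE 0.08, adjusted p = 4.2e-06) for Ppp1r15b, which directs the phosphatase that reverses eIF2 phosphorylation, with 0.51 (SE 0.08, adjusted p = 2.4e-04) on polysomes. Dnajc3, an inhibitor of eIF2 kinases, rose by 0.69 (SE 0.08, adjusted p = 2.1e-05) in total RNA and gave -0.24 (SE 0.08, adjusted p = 0.037) on polysomes, a call lost without sham array 2 of total RNA, sham polysome array 1 or 3 or injured polysome array 1 (-0.30 to -0.16) and on the other scales. Of 9 partners of eIF4, 8 were higher in total RNA. Only the helicase gene Ddx3x, with 0.64 (SE 0.06, adjusted p = 3.6e-06), was so on all 3 scales. Of 13 genes of elongation, termination and recycling, 9 were higher in total RNA, 5 of them on all 3 scales, and on polysomes 2 were higher and 6 lower, 2 and 3 on all 3 scales. Gspt1, the release factor eRF3a, gave 0.45 (SE 0.06, adjusted p = 3.6e-05) in total RNA, -0.63 (SE 0.06, adjusted p = 3.8e-06) on polysomes and an interaction of -1.08 (SE 0.08, adjusted p = 3.9e-06). Eefsec, which elongates at selenocysteine codons, was lower on polysomes with -0.59 (SE 0.06, adjusted p = 4.8e-06). Of 11 genes of mTORC1 and its upstream regulators, 4 were higher and 3 lower in total RNA, 0 and 3 on all 3 scales; Tsc2 was lower on polysomes with -0.62 (SE 0.07, adjusted p = 2.1e-05), and Sesn2 had an interaction of 0.65 (SE 0.08, adjusted p = 6.7e-05). The polysome changes of Gspt1, Eefsec and Tsc2 and the interactions of Gspt1 and Sesn2 were called on all 3 scales.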

How the data were processed

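The deposited table gives 1 log2 expression value per probe set and array (22690 probe sets, 5.26 to 14.65); which background correction, normalization and summary the authors used is not given in the sources used here. Per the labels' protocols, biotin-labelled cRNA made by a one-cycle protocol was hybridised to 12 Affymetrix arrays. Gene names came from GEO's platform annotation: 20393 probe sets carry 1 gene, 691 several and 1606 none. Each gene's brightest probe set was tested with limma 3.58.1 in R 4.3.3 (4 group means, eBayes with an intensity trend, Benjamini-Hochberg adjustment). Fraction differences used arrays centred on their medians over the tested genes. The replicates are biological per the titles; the number of arrays limits the precision. Members and gene lists were chosen with earlier results of these data known.

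Equal replicate numbers of total and polysome RNA were compared for pairing: the correlations of their deviations were 0.23, 0.18 and 0.17 in sham cord and -0.10, 0.20 and 0.10 in injured cord, so the sham numbers meet the pairing rule and the injured ones do not; the pairing was read from the values, since the labels do not state it. Statistics were printed for up to 3 genes per complex with the lowest adjusted p in each injury comparison whose arrays do not overlap, for the 3 largest fraction differences each way in sham cord, for a fixed set of textbook factors, and for up to 3 other translational control genes per comparison. For genes chosen by the first of these rules, the lack of overlap in the comparison that picked them was set by the choice. Alternatives were other scales, filters, probe set choices, blocks, array weights and single arrays left out.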

Additional observations from a re-analysis of the deposited data

Results flagged for a closer look

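For 31 of the 51 factor genes the injury change on polysomes differed from that in total RNA by the interaction test (limma, adjusted p below 0.05). The values that follow are the polysome change minus the total RNA change in log2 units. Among the start site factors they were -0.88 for Eif1a, -0.44 for Eif1ax, -0.33 for Eif1b, -0.38 for Eif5 and -0.45 for Eif5b. Among eIF2, eIF2B and the kinases they were -0.50 for Eif2s2, -0.50 for Eif2b1, -0.53 for Eif2b2, -0.33 for Eif2b5, -0.60 for Eif2ak1, 0.21 for Eif2ak2 and -0.28 for Eif2ak4. Among the eIF3 genes they were 0.18 for Eif3c, -0.59 for Eif3f, -0.65 for Eif3h, -0.34 for Eif3k, -0.34 for Eif3l and -1.24 for Eif3m. Among the eIF4 genes and the eIF4E inhibitors they were -0.43 for Eif4a1, -0.33 for Eif4a2, -0.25 for Eif4b, -1.30 for Eif4e, -0.28 for Eif4e2, 0.62 for Eif4e3, -0.52 for Eif4g3 and -0.36 for Eif4enif1. That of Eif2ak2 rests on polysome levels that were not above background. The remaining values were -0.50 for Eif6, -0.44 for Eef1akmt1, -0.27 for Eef1d, -1.02 for Eef1e1 and -0.37 for Eef2. Over all genes tested 39.3% had a negative and 11% a positive interaction at the same threshold, and 21 of these 31 calls were not made on every scale.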

How the results depend on the processing

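Single arrays left out gave 34 to 40 factor genes higher and 2 to 2 lower in total RNA, 9 to 17 and 9 to 12 on polysomes, 1 to 3 above and 25 to 30 below 0 for the interaction, 29 to 32 and 6 to 10 for the sham fraction difference and 26 to 28 and 10 to 14 for the injured one. The interaction count above 0 was 1 without sham array 1 or 3 or injured array 3 of total RNA, sham polysome array 2 or injured polysome array 1. The shares of all genes are not given beside the counts of this section. These counts show how calls moved, not how the factor genes stand against other genes. Counts that moved by over 1.5 times in total RNA were 16 higher and 5 lower after quantile normalization over 12 arrays, 15 and 5 after it within each fraction, and 24 higher after centring. On polysomes they were 7 higher when probe sets of a gene were averaged and 20 after centring. For the interaction they were 8 below 0 with either quantile setting, 6 above 0 within fractions, 7 above and 12 below after centring, 0 above with the mean of probe sets and 1 above without injured polysome arrays 1 and 2. For the fraction difference they were 20 above and 17 below (sham) and 10 above and 33 below (injured) on the deposited scale, 18 below (sham) and 17 above (injured) after quantile normalization, and 5 below (sham) without a filter on dim probe sets. With replicate number as a fixed block, the counts were 38 and 2, 12 and 10, 2 and 28, 32 and 9, and 28 and 13. Of the genes named this block ended only the interaction calls of Eif3c and Ppp1r15b (adjusted p = 0.067 and 0.051 in limma). Sham and injured arrays of equal number shared that term, so it does not model a pairing within sham or injured cord. A random block for replicate number within sham or injured cord (consensus correlation 0.0019) moved none of these counts.

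Signs turned as follows; the cause was not tested. Quantile normalization over 12 arrays gave, in total RNA, -0.084 for Eif2s2, -0.00045 for Eif2ak1, -0.024 for Eif3c, -0.089 for Eif3f, -0.0033 for Eif4b, -0.018 for Eif4h, -0.032 for Eef2 and -0.033 for Eif3k, and interactions of 0.10 for Eif4b, 0.05 for Eef1d and 0.0036 for Eif3k. Within fractions it gave, in total RNA, -0.075 for Eif2s2, -0.00079 for Eif2ak1, -0.021 for Eif3c, -0.082 for Eif3f, -0.0040 for Eif4b, -0.019 for Eif4h, -0.028 for Eef2 and -0.029 for Eif3k, and interactions of 0.0097 for Eif2b5, 0.017 for Eif3l, 0.10 for Eif4b, 0.10 for Eef1d and 0.021 for Ppp1r15b. The second brightest probe set gave, in total RNA, -0.14 for Eif5, -0.20 for Eif2ak3, -0.41 for Eif2ak1, -0.51 for Eif4a1 and 0.14 for Eif4e3, and on polysomes 0.36 for Eif2s2, -0.28 for Eif3e, 0.012 for Eif4e and -0.18 for Eif4e3. Its interactions were 0.043 for Eif5b, 0.40 for Eif5, 0.29 for Eif2s2, -0.054 for Eif3c, 0.22 for Eif4a1, -0.32 for Eif4e3 and 0.0011 for Eef1d, and its sham and injured fraction differences 0.11 and 0.40 for Eif2ak2 and 0.82 and 0.78 for Eif4e. The mean of probe sets gave -0.094 for Eif2ak1 and -0.21 for Eif4a1 in total RNA and a sham fraction difference of 0.30 for Eif4e. Without probe sets marked for cross-hybridisation, polysome changes were -0.28 for Eif3e and -0.17 for Eif3c, whose interaction was -0.62 and injured fraction difference -0.068. Over all settings and genes named, 3496 values kept direction and side of the threshold, 244 lost and 51 gained the threshold, 115 uncalled values changed sign or moved and 51 reversed. Fraction differences of single genes were recomputed for the 10 genes printed; the compared groups alone give no interaction. Leaving out both injured polysome arrays and the count over 3 scales were chosen after the data were seen.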

Other observations

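Probe sets annotated to more than 1 gene were not members; their means are given with SDs (n = 3) and no test. A probe set shared by Eif4a3, the helicase of the exon junction complex, and Gm5576 stood at 10.10 ± 0.0079 (sham) and 10.50 ± 0.079 (injured) in the total fraction, and at 10.53 ± 0.023 and 10.43 ± 0.016 on polysomes. One shared by Eef1g, the gamma subunit of the eEF1A exchange factor, and Gm29753 stood at 11.74 ± 0.038 and 12.03 ± 0.062 in total RNA, and at 11.54 ± 0.0048 and 11.49 ± 0.12 on polysomes. The 3 probe sets shared by Eif3j1 and Eif3j2, copies of a loosely bound eIF3 subunit gene, differed between injured and sham cord by 0.55, 0.62 and 0.57 in total RNA and by -0.29, -0.22 and -0.11 on polysomes.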
